A study of Mus musculus with 12 samples.

Results

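The values described here are those of 10 genes that serve as a gauge of the edges of a hippocampal dissection. Of these, 5 mark the thalamus (*Prkcd*, *Tcf7l2*, *Plekhg1*, *Rgs16* and *Tnnt1*) and 5 mark the cortex (*Tbr1*, *Lamp5*, *Cux2*, *Rorb* and *Fezf2*). They were chosen by name and found by Ensembl identifier in GENCODE M21, and all 10 are among the 26409 genes listed in the expression table. The libraries came from bulk poly-A RNA of microdissected hippocampus of adult C57Bl/6 mice aged 6 to 12 months. In the *Dek* cKO mice, labelled DEK KO, the gene for the chromatin protein DEK carries a germline deletion that goes back to floxed exons 3 to 4 and CMV-Cre, a Cre active in nearly all cells. CMV-Cre was later bred out and the line was kept by heterozygous matings. The 12 libraries fall into 4 groups of 3, female wild type (WT), female cKO, male WT and male cKO, and the question asked of these genes was whether their levels differed between the groups or followed single libraries.

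The thalamus and the cortex both border the hippocampus, and a dissection cut on either side can carry a little of them along. Thalamic relay neurons use the transcription factor TCF7L2 and the kinase PKC-delta, whereas cortical projection neurons are sorted into layers by transcription factors such as CUX2 and RORB in the upper and middle layers and FEZF2 and TBR1 in the deep layers. None of the markers belongs to its region alone. *Tcf7l2* is also used by maturing oligodendrocytes, *Lamp5* and *Cux2* by hippocampal neurogliaform interneurons and *Tbr1* by the subiculum, so their transcripts alone do not show that neighbouring tissue was taken. In bulk tissue, fewer cells of a type and less RNA per cell cannot be told apart.

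The promoter sequences of 4 members are shown: *Tcf7l2* and *Plekhg1*, the thalamus pair whose levels were most alike over the libraries, *Prkcd*, whose window holds a TCF/LEF motif, and *Rorb* as a cortical counterpart. In these 4 the window holds fewer than 5 bases of GENCODE exons. RefSeq held an entry for all 10 members. Each run holds the 250 bases before the RefSeq transcription start on GRCm38.p6, written 5′ to 3′ on the gene's strand, and capitals mark a TCF/LEF motif.
Prkcd (chr14:30626209-30626458, - strand): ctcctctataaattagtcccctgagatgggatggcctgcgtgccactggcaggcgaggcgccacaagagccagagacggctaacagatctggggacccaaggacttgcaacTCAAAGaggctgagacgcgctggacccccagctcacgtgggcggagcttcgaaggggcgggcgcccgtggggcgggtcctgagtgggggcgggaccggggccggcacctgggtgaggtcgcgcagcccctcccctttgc
Tcf7l2 (chr19:55741560-55741809, + strand): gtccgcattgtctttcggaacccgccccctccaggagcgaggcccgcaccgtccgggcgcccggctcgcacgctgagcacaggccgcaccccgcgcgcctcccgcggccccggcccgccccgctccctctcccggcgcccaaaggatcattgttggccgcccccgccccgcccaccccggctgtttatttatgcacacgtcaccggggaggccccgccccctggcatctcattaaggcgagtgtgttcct
Plekhg1 (chr10:3872417-3872666, + strand): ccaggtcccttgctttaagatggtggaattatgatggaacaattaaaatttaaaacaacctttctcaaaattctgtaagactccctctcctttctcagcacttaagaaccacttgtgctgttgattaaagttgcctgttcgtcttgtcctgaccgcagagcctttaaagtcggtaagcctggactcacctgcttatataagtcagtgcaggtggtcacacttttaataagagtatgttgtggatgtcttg
Rorb (chr19:19111197-19111446, - strand): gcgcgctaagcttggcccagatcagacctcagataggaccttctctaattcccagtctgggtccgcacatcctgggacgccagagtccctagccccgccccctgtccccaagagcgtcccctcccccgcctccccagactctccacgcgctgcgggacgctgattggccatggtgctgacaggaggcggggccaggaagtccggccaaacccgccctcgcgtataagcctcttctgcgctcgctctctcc
The motifs searched on both strands were CTTTGA for TCF/LEF factors, the family of TCF7L2, GGTGTGA for T-box factors, the family of TBR1, and AGGTCA for ROR receptors, the family of RORB. The TCF/LEF letters lay in 3 of the 10 windows, those of *Prkcd*, *Tbr1* and *Fezf2*, against 14.0% of 27025 RefSeq promoters of the same length. Neither the T-box letters, held by 3.31% of promoters, nor the ROR letters, held by 13.8%, lay in any of the 10. These are matches of letters in one window and say nothing of binding. The whole *Tbr1* window and 94 bases of the *Fezf2* window lie in GENCODE exons, and the bases after the *Lamp5* start were found in no GENCODE transcript.

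Expression was given as TPM, a length-corrected share of a library's transcripts scaled to a common total, so levels of different genes can be set side by side. *Dek* itself lay at 44.2 to 51.9 TPM in the 6 WT libraries and at 5.55 to 9.25 TPM in the 6 cKO libraries, with a gap between the genotypes. Transcripts from the Y chromosome went against the sex label in 2 libraries. In the library labelled female cKO 3, *Eif2s3y* lay at 72.7 TPM and *Ddx3y* at 20.4 TPM, while in the library labelled male cKO 1 they lay at 0.111 and 0 TPM, so the comparisons are also given without both libraries. The 3 female WT libraries carry another name prefix (C57) than the remaining 9 (CMV), and this difference cannot be told apart from genotype within females. The table sums to between 825750 and 845553 TPM per library and keeps no read counts, so the depth behind a value is unknown. The labels do not say that replicates are separate animals, so p-values measure the spread between these libraries.

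All 10 members were detected in all 12 libraries, none as a trace. The highest level was that of *Lamp5*, at 38.2 ± 13.5 TPM (SD, n = 12), followed by *Tbr1* at 30.2 ± 9.10 TPM, *Prkcd* at 25.4 ± 6.14 TPM, *Cux2* at 25.3 ± 7.96 TPM and *Fezf2* at 24.5 ± 2.91 TPM. The lower 5 were *Plekhg1* at 7.11 ± 1.00 TPM, *Rgs16* at 6.77 ± 2.19 TPM, *Tnnt1* at 5.38 ± 2.96 TPM, *Tcf7l2* at 5.28 ± 2.25 TPM and *Rorb* at 4.26 ± 0.703 TPM. Only between *Fezf2* and *Plekhg1* did the ranges of neighbours in this order not overlap. Compared within each library, *Lamp5* also lay above *Tbr1* in 12 of 12, as *Fezf2* did above *Plekhg1*. The other steps held in 6 to 10 libraries. The members also differed in how much they varied: *Plekhg1* spanned 1.54-fold between its lowest and highest library and *Fezf2* 1.55-fold, whereas *Lamp5* spanned 3.24-fold, *Tcf7l2* 4.04-fold and *Tnnt1* 6.88-fold.

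**Figure D1:**
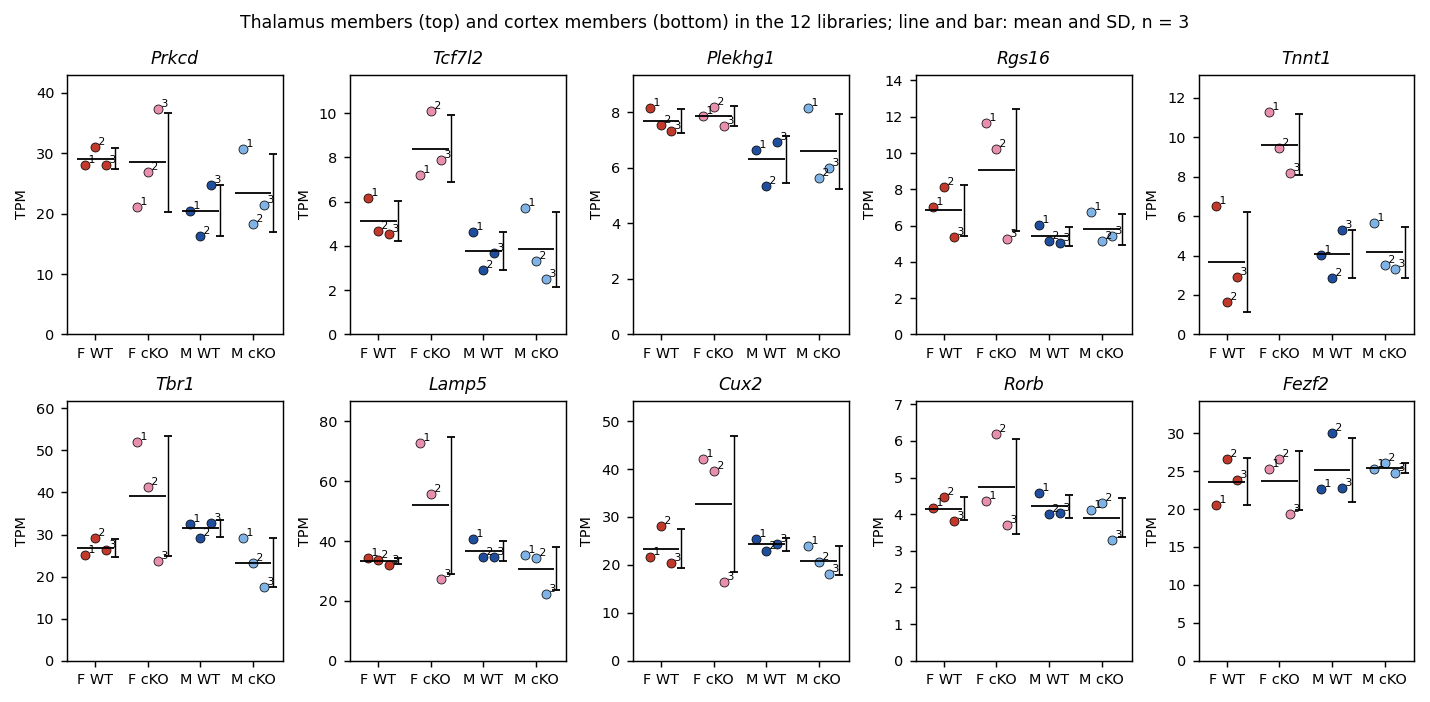
Level of each member (TPM, vertical axis from 0) in the 4 groups, with 1 numbered point per library, a line at the group mean and a bar for the SD (n = 3). Female cKO libraries 1 and 2 stand above all others for *Rgs16*, *Tnnt1*, *Tbr1*, *Lamp5* and *Cux2*, while female cKO 3 stands with them for *Tnnt1* but not for the cortex members.

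Among the thalamus members, *Tnnt1*, a slow-muscle troponin T that is used as a marker of thalamic neurons, had the widest range. Its level was 6.48, 1.64 and 2.90 TPM in female WT libraries 1 to 3, 11.3, 9.46 and 8.16 TPM in female cKO, 4.01, 2.88 and 5.31 TPM in male WT, and 5.66, 3.50 and 3.30 TPM in male cKO. All 3 female cKO libraries lay above the other 9, and the remaining groups overlapped one another. *Tcf7l2*, which encodes the Wnt-pathway transcription factor that gives thalamic neurons their identity, had the same shape. It stood at 6.17, 4.66 and 4.52 TPM in female WT, 7.19, 10.1 and 7.88 TPM in female cKO, 4.64, 2.93 and 3.69 TPM in male WT, and 5.73, 3.30 and 2.49 TPM in male cKO. Again the female cKO libraries were the 3 highest of the 12.

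*Rgs16*, a GTPase-activating protein that shortens G-protein signals, was high in only part of the female cKO group. Its values were 7.04, 8.12 and 5.35 TPM in female WT, 11.7, 10.2 and 5.27 TPM in female cKO, 6.03, 5.16 and 5.06 TPM in male WT, and 6.74, 5.17 and 5.44 TPM in male cKO. Female cKO 1 and 2 were the top pair, and female cKO 3 lay among the lowest libraries. An antisense gene, *Gm28513*, overlaps *Rgs16* on the opposite strand and has no row in the table. The study's methods name a stranded library kit, but how strand was used in counting is not given in the sources used here. The value of *Rgs16* carries that uncertainty.

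*Prkcd*, which encodes PKC-delta, followed neither pattern. Its level was 28.1, 31.1 and 28.1 TPM in female WT, 21.2, 27.0 and 37.4 TPM in female cKO, 20.5, 16.2 and 24.7 TPM in male WT, and 30.7, 18.3 and 21.4 TPM in male cKO. The highest value was that of the library labelled female cKO 3, and female WT lay wholly above male WT. *Plekhg1*, a guanine nucleotide exchange factor for small GTPases, moved least, at 7.33 to 8.17 TPM in female WT, 7.50 to 8.21 TPM in female cKO, 5.34 to 6.93 TPM in male WT and 5.65 to 8.15 TPM in male cKO.

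Among the cortex members, *Tbr1*, *Lamp5* and *Cux2* shared one pattern. *Tbr1*, a T-box factor of deep-layer corticothalamic neurons, stood at 25.0, 29.1 and 26.3 TPM in female WT, 52.1, 41.3 and 23.8 TPM in female cKO, 32.6, 29.2 and 32.7 TPM in male WT, and 29.1, 23.3 and 17.4 TPM in male cKO. *Lamp5*, a lysosome-associated membrane protein of cortical neurons, stood at 34.2, 33.7 and 32.1 TPM in female WT, 72.8, 55.9 and 27.4 TPM in female cKO, 40.6, 34.8 and 34.7 TPM in male WT, and 35.3, 34.5 and 22.4 TPM in male cKO. *Cux2*, a homeodomain factor of upper-layer neurons, stood at 21.6, 28.2 and 20.5 TPM in female WT, 42.0, 39.7 and 16.3 TPM in female cKO, 25.5, 22.9 and 24.4 TPM in male WT, and 24.0, 20.5 and 18.0 TPM in male cKO. In all 3 genes female cKO 1 and 2 were the top pair, female cKO 3 lay below every WT library, and male cKO 3 had the lowest *Tbr1* and *Lamp5*.

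*Rorb*, a nuclear receptor of layer 4 neurons, and *Fezf2*, a zinc-finger factor of neurons that project out of the cortex, were flatter. *Rorb* lay at 3.82 to 4.47 TPM in female WT, 3.69 to 6.19 TPM in female cKO, 4.01 to 4.58 TPM in male WT and 3.30 to 4.30 TPM in male cKO, with female cKO 2 alone above 5. *Fezf2* lay at 20.5 to 26.6 TPM in female WT, 19.4 to 26.6 TPM in female cKO, 22.7 to 30.1 TPM in male WT and 24.8 to 26.1 TPM in male cKO. Female cKO 3 had the lowest *Fezf2* and male WT 2 the highest.

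**Figure D2:**
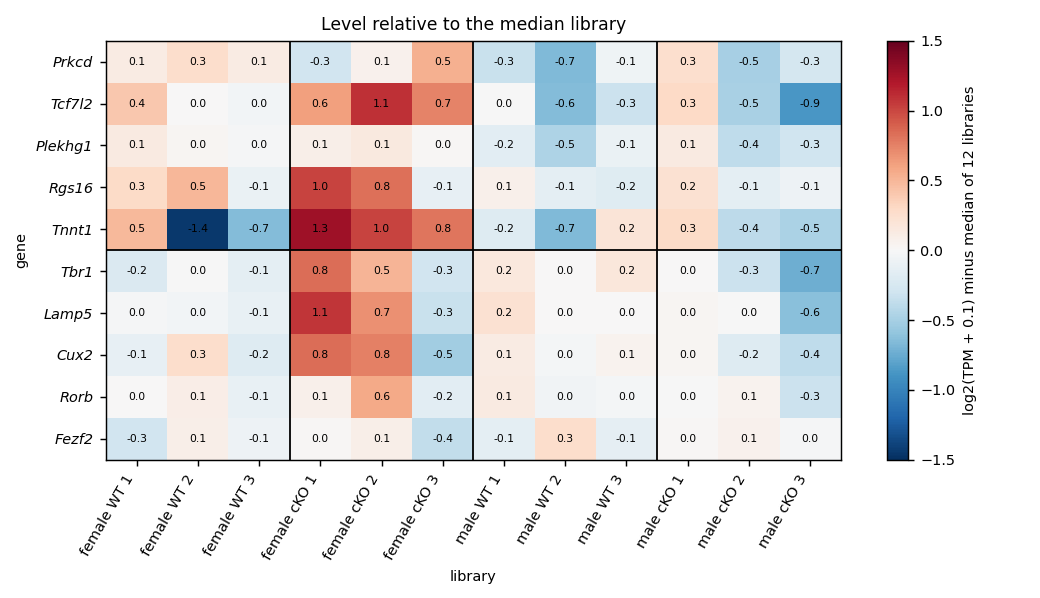
Level of each member (rows) in each library (columns) as the difference of log2(TPM + 0.1) from that gene's median over the 12 libraries, printed in each cell. Female cKO 1 and 2 are high in most thalamus and cortex members together, female cKO 3 is high in 3 of the 5 thalamus members and below the median in all 5 cortex members, and male cKO 3 is below the median in all 10.

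Set against the median library, the libraries differed in which list was high. In female cKO 1 the thalamus members averaged 0.54 and the cortex members 0.57 above the median library on the log2 scale, and in female cKO 2 the averages were 0.63 and 0.52. In the library labelled female cKO 3 the thalamus members averaged 0.40 but the cortex members -0.33. In male cKO 3 both were low, at -0.40 and -0.41, while male WT 2 and male cKO 2 were low in the thalamus members, at -0.52 and -0.38, but not in the cortex members, at 0.04 and -0.08. Summed over the list, the thalamus members ranged from 32.5 TPM in male WT 2 to 66.2 TPM in female cKO 3, and the cortex members from 86.0 TPM in male cKO 3 to 197 TPM in female cKO 1. Male cKO 3 also had *Gfap*, the intermediate filament of reactive astrocytes, at 1267 TPM against 208 to 437 TPM in the other 11 libraries. The part of high *Gfap* in the members' levels was not tested.

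**Figure D3:**
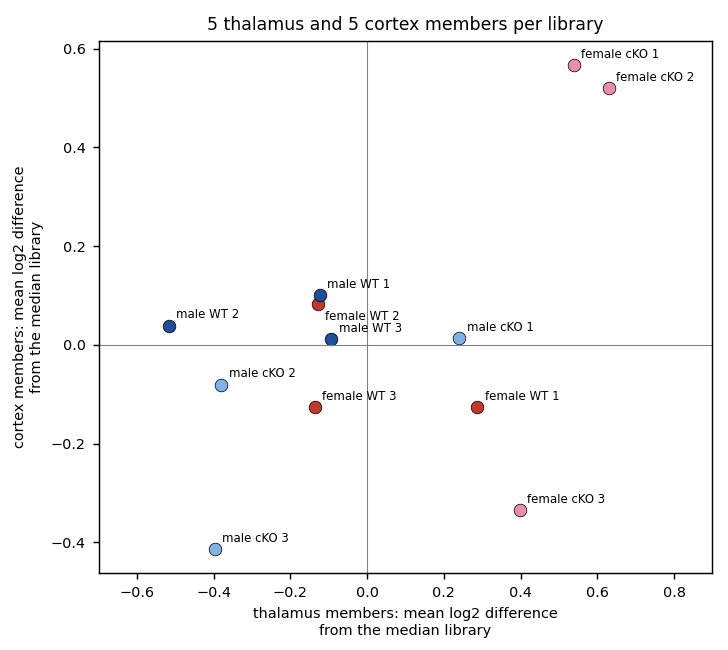
Mean log2 difference from the median library over the 5 thalamus members (horizontal axis) and over the 5 cortex members (vertical axis), 1 labelled point per library. Female cKO 1 and 2 lie at the upper right, female cKO 3 at the lower right at 0.40 and -0.33, and male cKO 3 at the lower left at -0.40 and -0.41.

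The pair of female cKO 1 and 2 held the 2 highest of the 12 values for 5 of the 10 members, namely *Rgs16*, *Tnnt1*, *Tbr1*, *Lamp5* and *Cux2*. Over all 18197 genes tested this was so for 5.82%. The pair was picked after its values were seen, so the count is a description. The same held for 8 of 16 further cortex markers, among them *Cux1*, *Rasgrf2*, *Ntsr1*, *Scnn1a*, *Ccn2*, *Cplx3* and *Hs3st2*, and for 4 of 14 further thalamus markers, *Slc17a6*, *Gbx2*, *Rora* and *Adarb1*. It held for 2 of 6 subiculum markers, 1 of 8 habenula markers and 1 of 8 interneuron markers, and for 0 of the markers of CA1 (6), CA3 (5), dentate gyrus (6), choroid plexus (6), oligodendrocytes (8) and astrocytes (6). *Ntsr1*, a receptor of layer 6 neurons named here after its values were seen, stood at 5.01 and 4.73 TPM in the pair against 0.675 to 3.38 TPM elsewhere.

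The comparison of cKO with WT over both sexes asked whether *Dek* loss went with a shift in either list. No member was called: with limma across 18197 genes, at an adjusted p under 0.05 and a fold change over 1.2, 0 of 10 passed, where 0.148% of all genes did. At an unadjusted p under 0.05 there was 1 member, *Tnnt1*, against a background of 6.64%. Its level was 3.87 TPM in WT and 6.89 TPM in cKO, a log2 fold change of 0.80 ± 0.36 (SE; limma adjusted p = 0.746). The median log2 fold change was 0.22 over the thalamus members and 0.02 over the cortex members, beside 0.02 over all genes. For the other members the estimates ran from 0.00 for *Tbr1* to 0.34 for *Tcf7l2*, and the 95% interval of *Fezf2*, -0.20 to 0.22, was the narrowest. The estimates for *Tbr1*, *Lamp5* and *Cux2*, 0.00, 0.12 and 0.07, became -0.16, -0.06 and -0.08 without female cKO 1. Without both libraries of conflicting sex the estimate for *Prkcd* was -0.15 and that for *Tnnt1* 0.74 (limma adjusted p = 0.895 and 0.780).

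In females, 0 of 10 members were called, where 0.0165% of genes were. At an unadjusted p under 0.05 there were 2 members, *Tnnt1* and *Tcf7l2*, against 5.79% of genes, and the same 2 had all cKO libraries above all WT libraries, as did 7.45% of genes. *Tnnt1* was at 3.68 ± 2.51 TPM in WT and 9.63 ± 1.56 TPM in cKO (SD, n = 3 each), a log2 fold change of 1.57 with a 95% interval of 0.67 to 2.47 (limma adjusted p = 0.671). *Tcf7l2* was at 5.12 ± 0.915 TPM and 8.39 ± 1.52 TPM, a log2 fold change of 0.70 with an interval of 0.09 to 1.32 (limma adjusted p = 0.845). Neither passed the correction, although both were higher in 3 of 3 libraries labelled female cKO. These include female cKO 3, whose Y-linked transcripts went against its label. In male cKO 1, the other such library, *Tnnt1* and *Tcf7l2* lay at 5.66 and 5.73 TPM, below female WT 1 at 6.48 and 6.17 TPM. For *Tbr1*, *Lamp5* and *Cux2* the log2 fold changes were 0.47, 0.53 and 0.38 and the groups overlapped, since female cKO 3 was below WT. The list medians were 0.34 for thalamus and 0.38 for cortex members, beside 0.01 over all genes.

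The female values of the cortex members hung on which cKO libraries were kept. Without both libraries whose Y-linked transcripts went against the label, the log2 fold changes became 0.79 ± 0.14 for *Tbr1*, 0.93 ± 0.18 for *Lamp5* and 0.81 ± 0.13 for *Cux2* (SE), with limma adjusted p = 0.127, 0.137 and 0.103. Over all alternatives these adjusted p-values ran from 0.127, 0.131 and 0.103 up to 1.0. Without female cKO 1 alone the log2 fold changes of *Tbr1*, *Lamp5* and *Cux2* were 0.23, 0.23 and 0.14. *Tnnt1* and *Tcf7l2* stood at 1.68 and 0.74 without the conflicting libraries, and neither passed the threshold (limma adjusted p = 0.323 and 0.431). Over the alternatives in females, the adjusted p ran from 0.196 to 1.0 for *Tnnt1* and from 0.431 to 1.0 for *Tcf7l2*.

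In males, 0 of 10 members were called, where 0.0165% of genes were, and 0 had an unadjusted p under 0.05 in limma, where 5.45% of genes did. *Tbr1* was at 31.5 ± 1.98 TPM in WT and 23.3 ± 5.85 TPM in cKO, with all 3 cKO libraries below all 3 WT libraries, as for 3.84% of genes. Its log2 fold change was -0.46 ± 0.25 (SE; limma adjusted p = 0.880). It was -0.64 without the library labelled male cKO 1 and -0.27 without male cKO 3, the library with high *Gfap* (limma adjusted p = 0.374 with both libraries of conflicting sex left out, and 0.374 to 1.0 over all alternatives). The cortex list had a median of -0.23 and the thalamus list a median of 0.05, beside 0.02 over all genes. Without the library labelled male cKO 1, which had the highest male cKO level of all 5 thalamus members, the estimate for *Prkcd* went from 0.18 to -0.03 and that for *Tnnt1* from 0.03 to -0.21.

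**Figure D4:**
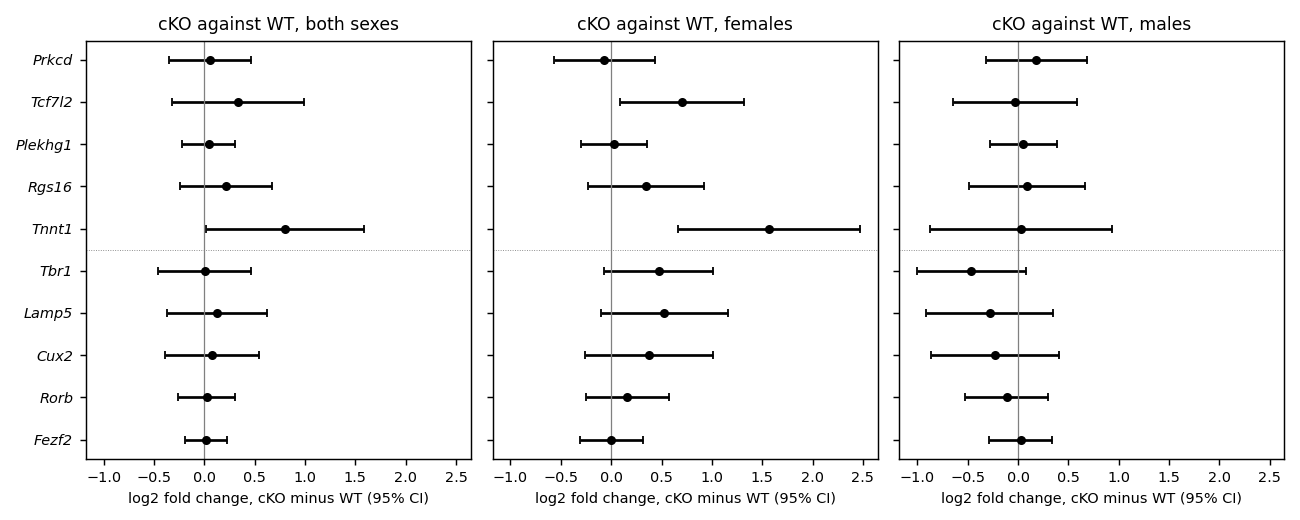
Log2 fold change of each member, cKO minus WT, with its 95% interval from limma, in both sexes, females and males. The intervals of *Tnnt1* and *Tcf7l2* in females, 0.67 to 2.47 and 0.09 to 1.32, lie above 0. So does that of *Tnnt1* in both sexes, 0.02 to 1.58. No member passed the adjusted threshold in any panel.

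The difference between the sexes in the response was tested as an interaction. None of the 10 members was called, and 0.0% of all genes were. At an unadjusted p under 0.05 there were *Tnnt1*, with a male minus female difference of -1.54 ± 0.58 (SE), and *Tbr1*, with -0.93 ± 0.35, against 4.23% of all genes (limma adjusted p = 0.966 for both). Without both libraries of conflicting sex, with 2 cKO libraries left per sex, these were -1.89 ± 0.68 and -1.43 ± 0.20, and *Lamp5* was at -1.33 ± 0.25 and *Cux2* at -1.15 ± 0.19 (limma adjusted p = 0.492, 0.122, 0.192 and 0.164). Between WT males and WT females 0 of 10 members were called and 0.0% of genes were, and at an unadjusted p under 0.05 in limma there was 1, *Prkcd*, against 3.63%. *Prkcd* was at 20.5 ± 4.23 TPM in male WT and 29.1 ± 1.70 TPM in female WT, a log2 difference of -0.53 (limma adjusted p = 1.0, and 0.974 without both libraries of conflicting sex, which changes the estimate of the spread alone). Male WT lay wholly below female WT for *Prkcd* and *Plekhg1*, as for 6.46% of genes, and wholly above it for *Tbr1* and *Lamp5*, as for 5.58%. The name prefix of the WT libraries differs between the sexes in the same way, and the 2 cannot be told apart.

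Within each list, some members were high in the same libraries. Over the 12 libraries, with 45 pairs of members tested by permutation and adjusted together, all 10 pairs of cortex members had a positive Pearson r, and 4 passed an adjusted p under 0.05 by both Pearson and Spearman. The closest was *Tbr1* with *Lamp5* (r = 0.95, permutation p = 2.0e-05, adjusted p = 0.0009; Spearman coefficient = 0.86, permutation p = 0.00071, adjusted p = 0.0106). *Tbr1* with *Cux2* had r = 0.91 and Spearman coefficient = 0.87, *Lamp5* with *Cux2* r = 0.92 and Spearman coefficient = 0.82, and *Cux2* with *Rorb* r = 0.77 and Spearman coefficient = 0.83, with permutation p-values adjusted to 0.0165 or less. Leaving out the 2 libraries farthest from the median of the first gene gave r = 0.85, 0.90, 0.74 and 0.78 for these pairs. Without female cKO 1 and 2 these pairs had r = 0.87, 0.77, 0.74 and 0.78, so they did not rest on those 2 libraries alone. *Fezf2* stood aside, with r between 0.23 and 0.42 to the other cortex members, none past the threshold.

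All 10 pairs of thalamus members also had a positive r, and 2 passed by both measures. *Tcf7l2* with *Plekhg1* had r = 0.84 and Spearman coefficient = 0.87 (permutation p, adjusted 0.00506 and 0.0101), and 0.83 without the 2 farthest libraries. *Tcf7l2* with *Tnnt1* had r = 0.72 and Spearman coefficient = 0.76 (adjusted permutation p = 0.0395 and 0.0370), and 0.68 without them, or 0.56 without female cKO 1 and 2. *Prkcd* with *Plekhg1* passed by Pearson alone (r = 0.78, adjusted permutation p = 0.0165; Spearman coefficient = 0.66, adjusted permutation p = 0.107). With *Rgs16* and *Tnnt1*, *Prkcd* had r = 0.15 and 0.20. *Rgs16* with *Tnnt1* had r = 0.47, and -0.24 without female cKO 1 and 2. Across the lists, 18 of 25 pairs were positive, 3 passed by Pearson and 0 by Spearman. Those 3 joined *Rgs16* to *Tbr1*, *Lamp5* and *Cux2*, with r = 0.74, 0.81 and 0.88, and without female cKO 1 and 2 they had r = 0.20, 0.25 and 0.56, so those with *Tbr1* and *Lamp5* rested on that pair.

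**Figure D5:**
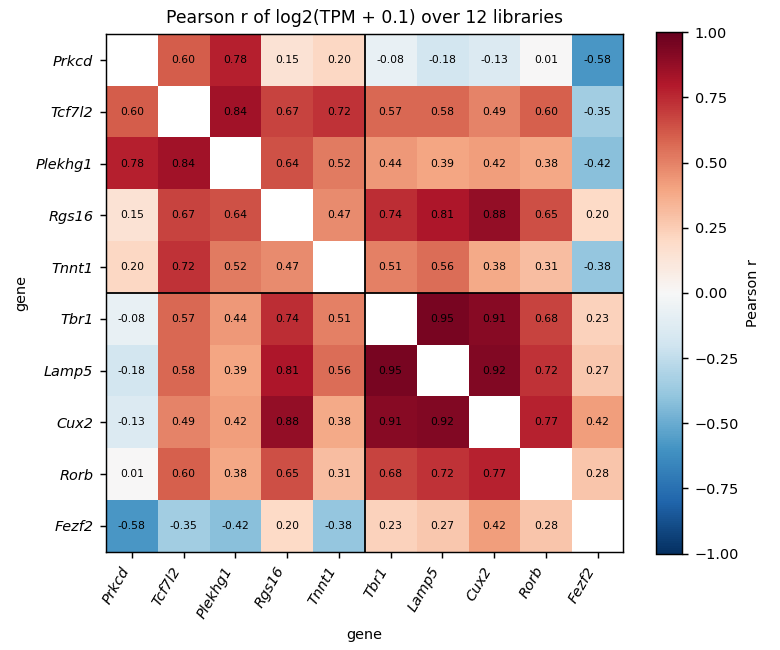
Pearson r of log2(TPM + 0.1) over the 12 libraries for each pair of members, thalamus members first and the lists parted by black lines. *Tbr1*, *Lamp5* and *Cux2* form a block at 0.91 to 0.95, and *Fezf2* has negative r with 4 thalamus members, -0.58 with *Prkcd*.

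Markers of neighbouring tissues and of hippocampal cells were measured the same way in 12 lists of 95 genes. None was called by limma in any comparison. At an unadjusted p under 0.05 there were 3 higher and 0 lower in both sexes, 4 higher and 2 lower in females, and 2 higher and 1 lower in males, where 6.64%, 5.79% and 5.45% of all genes were past it in either direction. In females 10 of the 14 further thalamus markers had a positive log2 fold change, and their median was 0.16. Of them, 3 were past the unadjusted threshold, all named after their values were seen: *Gbx2* and *Shox2*, homeobox factors of thalamic neurons, and *Lef1*, a Wnt-pathway factor. *Gbx2* was at 0.850, 0.592 and 0.518 TPM in female cKO against 0 to 0.381 TPM in the other 9 libraries, and *Shox2* at 0.787, 1.67 and 1.16 TPM against 0 to 0.561 TPM. Their log2 fold changes in females were 1.99 and 1.75 (limma adjusted p = 0.834 and 0.845). The most abundant further thalamus markers, *Cacna1g*, *Adarb1* and *Calb2*, ranged over 50.6 to 159, 58.0 to 78.8 and 32.6 to 70.5 TPM, levels that the hippocampus itself contributes to.

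Over both sexes 8 of the 16 further cortex markers had a positive log2 fold change. In females 13 of 16 had one, with a median of 0.27, and in males 3 of 16, with a median of -0.18. The medians over all genes were 0.01 and 0.02. Of the 16, *Rprm* and *Syt6* were at an unadjusted p under 0.05 in the comparison that pools the sexes. Within a single sex, *Rprm* was past it in females only and *Syt6* in males only. *Rprm*, a cell cycle inhibitor that marks deep-layer neurons, was at 37.4 TPM in WT and 65.4 TPM in cKO, a log2 fold change of 0.80 (limma adjusted p = 0.312). Its highest value, 96.8 TPM, was that of male cKO 3, in which *Tbr1*, *Lamp5* and *Rorb* were lowest. *Etv1* and *Rasgrf2*, the other abundant cortex markers, ranged over 41.1 to 68.4 TPM and 32.6 to 61.5 TPM. In the habenula list *Gpr151*, a receptor of habenular neurons, was higher in all 6 cKO than in all 6 WT libraries, as 0.572% of genes were. It was at 0.735 TPM in WT and 1.43 TPM in cKO (log2 fold change 0.83, limma adjusted p = 0.247). The gap was narrow, from 0.867 TPM in female WT 1 to 0.876 TPM in female cKO 1. Over both sexes 6 of 8 habenula genes had a positive log2 fold change. The other abundant habenula genes, *Tac2* and *Hcn4*, ranged over 6.41 to 13.9 and 0.673 to 1.22 TPM.

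In no gene of the CA1, CA3 and dentate gyrus lists were female cKO 1 and 2 the top pair. Over all genes tested this was so for 5.82%, and in lists this short 0 lies near that share. In females, 1 of 6 CA1, 0 of 5 CA3 and 3 of 6 dentate gyrus genes had a positive log2 fold change. Their medians were -0.20, -0.29 and 0.03, beside 0.01 over all genes. In males, 1 of 6, 4 of 5 and 2 of 6 were positive, with medians of -0.13, 0.19 and -0.13. *Fibcd1* and *Nectin3* were lower in females at an unadjusted p under 0.05 (limma adjusted p = 0.845 and 0.804). *Wfs1*, of the CA1 list, was lower in males at that threshold, with a log2 fold change of -0.52 (limma adjusted p = 0.880). *Nectin3*, of the CA3 list, was named after its values were seen. The CA1 genes *Wfs1*, *Fibcd1* and *Mpped1* ranged over 36.5 to 71.2, 38.6 to 68.1 and 107 to 161 TPM, the CA3 genes *Grik4*, *Bok* and *Cpne4* over 26.5 to 49.5, 40.1 to 73.3 and 60.6 to 95.7 TPM, and the dentate gyrus genes *C1ql2*, *Lct* and *Trpc6* over 47.2 to 112, 4.51 to 19.2 and 7.04 to 14.0 TPM. The subiculum genes *Nts*, *Tshz2* and *Scn4b* ranged over 5.87 to 13.9, 11.8 to 53.0 and 5.49 to 19.6 TPM. Of the interneuron genes, *Sst* ranged over 406 to 453 TPM, *Gad1* over 180 to 234 TPM and *Pvalb* over 42.3 to 87.6 TPM. *Ttr*, the transthyretin gene of the choroid plexus, ran from 37.5 to 4289 TPM, *Folr1* from 0.924 to 44.3 TPM and *Kl* from 5.93 to 43.6 TPM. *Ttr* was at 37.5 TPM in female cKO 1 and 3308 TPM in female cKO 2, so it did not follow the members. The part of these other tissues in the members' levels was not tested. The striatum genes *Rgs9* and *Ppp1r1b* ranged over 10.5 to 18.4 and 43.2 to 81.3 TPM. The oligodendrocyte genes *Mbp* and *Mobp* ranged over 1363 to 2777 and 267 to 641 TPM, and the astrocyte genes *Slc1a3* and *Aldoc* over 236 to 292 and 522 to 706 TPM.

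The genes whose levels over the 12 libraries were most like the members' were ranked among the 14150 other genes that averaged 1 TPM or more, by Pearson r with the mean standardised log2 level of each list. For the thalamus members these were *Cdk19* (r = 0.91), *Slc25a45*, *Kif24*, *Plcb4*, *Sall1*, *Arap1*, *Wwc1*, *Fbxo32*, *Rassf2* and *Arhgap23*, all at r of at least 0.85. *Plcb4*, a phospholipase C with high expression in thalamic relay neurons, ranged from 12.2 to 25.8 TPM and was highest in female cKO 2. For the cortex members they were *Ngef* (r = 0.98), *Grik3*, *Cckbr*, *Cobl*, *Farp1*, *Arl4c*, *Igsf21*, *Fut9*, *Dpy19l1* and *Rhobtb2*, all at r of at least 0.95 after rounding. *Cckbr*, a receptor for the neuropeptide cholecystokinin, had a wide range among them, from 3.94 TPM to 25.0 TPM, with its highest value in female cKO 1. None of these 20 genes was on a marker list, and the ranking is a description over libraries that the members share.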

How the data were processed

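Bulk poly-A RNA-seq of hippocampus was measured in 12 libraries. The authors deposited TPM per gene, 1 column per library. The submitters' processing notes name kallisto and mm10, while the study's methods name STAR on GRCm38 with Salmon, and which of these wrote the table is not given in the sources used here. TPM keeps no counts, so the DESeq2 test of the methods could not be run and limma (version 3.58.1, R 4.3.3) was used instead. All columns were matched to samples by name, and groups follow the labels.

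GENCODE M21 held the Ensembl identifiers of 25245 of the 26409 genes. Those with a mean of at least 0.1 TPM were tested (18197) on log2(TPM + 0.1), with a trended prior variance, on all 12 libraries, and p-values were adjusted by Benjamini-Hochberg over all of them. A fold change on this scale understates the change of low genes. A fit of 4 groups gave the female, male, WT sex and interaction comparisons, and a fit of genotype alone gave the one over both sexes. A call needed an adjusted p under 0.05 and a fold change over 1.2. Correlations used 100000 permutations, whose smallest possible p is 1e-05. The scripts were tested on simulated data. Alternatives changed the pseudocount, filter, scaling, prior, covariates, pairing and libraries used.

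Members and marker lists were chosen with earlier results of these data known. Genes named in the text are the 10 members, the 3 most abundant of each of the 12 companion lists and any called, the 10 genes most like each member list, and *Dek*, *Eif2s3y* and *Ddx3y*. Names outside this rule are said to be chosen after their values were seen. That includes the genes listed by name as highest in female cKO 1 and 2, *Rgs16*'s antisense neighbour, and *Syt6*. A few genes of the companion lists are not reported here.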

Additional observations from a re-analysis of the deposited data

Results flagged for a closer look

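In each member, the 6 WT and the 6 cKO libraries were searched for a sample far from the others by Dixon's gap ratio at its 95% critical value. Of 20 groups searched, 3 held such a library, where chance gives about 1 in 20. *Lamp5* in male WT 1 lay at 40.6 TPM, above the other 5 WT libraries at 32.1 to 34.8 TPM. *Rorb* in female cKO 2 lay at 6.19 TPM, above the other 5 cKO libraries at 3.30 to 4.36 TPM. *Fezf2* in the library labelled female cKO 3 lay at 19.4 TPM, below the other 5 cKO libraries at 24.8 to 26.6 TPM. That library is also 1 of the 2 whose Y-linked transcripts went against the sex label.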

How the results depend on the processing

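No alternative called a member: over 25 alternatives and 30 member results the smallest adjusted p was 0.103. Of 700 values 634 kept their direction and 66 turned it, all of them estimates that passed no test, 36 of these on leaving out 1 library. The depth behind the values is unknown. The alternative without female cKO libraries 1 and 2 was chosen after seeing the data, for the pair's high values, so lower estimates without it follow from the choice. It leaves 1 female cKO library, the one whose Y-linked transcripts go against its label, which is assumed to vary like the other groups. The causes of the changes were not tested. With median ratio rescaling, the signs of these turned: *Tbr1* -0.011, *Fezf2* -0.0014 in both sexes, and *Fezf2* -0.014 in females. With quantile normalization, the signs of these turned: *Tbr1* -0.011, *Rorb* -0.030 in both sexes, and *Fezf2* -0.0086 in females, and *Tnnt1* -0.058 in males. Without both libraries of conflicting sex, the signs of these turned: *Prkcd* -0.15, *Plekhg1* -0.021 in both sexes, and *Prkcd* -0.028, *Plekhg1* -0.11, *Rgs16* -0.024, *Tnnt1* -0.21 in males. Without the 3 C57-named libraries, the signs of these turned: *Tbr1* -0.11, *Fezf2* -0.029 in both sexes. Without female cKO libraries 1 and 2, the signs of these turned: *Plekhg1* -0.040, *Rgs16* -0.099, *Tbr1* -0.33, *Lamp5* -0.25, *Cux2* -0.28, *Rorb* -0.12, *Fezf2* -0.029 in both sexes, and *Prkcd* 0.36, *Plekhg1* -0.035, *Rgs16* -0.35, *Tbr1* -0.17, *Lamp5* -0.28, *Cux2* -0.50, *Rorb* -0.16, *Fezf2* -0.28 in females. In both sexes, leaving out 1 library at a time gave *Cux2* -0.075 to 0.20, *Fezf2* -0.034 to 0.081, *Lamp5* -0.062 to 0.28, *Plekhg1* -0.032 to 0.11, *Prkcd* -0.057 to 0.15, *Rorb* -0.083 to 0.094, *Tbr1* -0.16 to 0.15. In females, leaving out 1 library at a time gave *Fezf2* -0.097 to 0.14, *Plekhg1* -0.0019 to 0.075, *Prkcd* -0.28 to 0.13, *Rorb* -0.046 to 0.32. In males, leaving out 1 library at a time gave *Fezf2* -0.043 to 0.16, *Plekhg1* -0.11 to 0.15, *Prkcd* -0.028 to 0.35, *Rgs16* -0.024 to 0.17, *Rorb* -0.18 to 0.0023, *Tbr1* -0.64 to -0.27, *Tcf7l2* -0.35 to 0.23, *Tnnt1* -0.21 to 0.24.

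Counts of genes called over all genes moved more. They were 27 in both sexes, 3 in females, 3 in males, 0 between WT sexes and 0 for the interaction. With no filter on low values they were 17 in both sexes, 6 in males, 3 between WT sexes and 2 for the interaction. With a prior variance without trend they were 7 in females, 6 in males, 3 between WT sexes and 2 for the interaction. Without both libraries of conflicting sex they were 12, 6, 6, 4 and 3. Without the C57-named libraries there were 10 in both sexes. Fitted on the libraries of 1 sex there were 1 in females and 6 in males. Without female cKO libraries 1 and 2 there were 10 in both sexes, 23 in females and 10 for the interaction, the latter counts from that 1 female cKO library, which carries Y-linked transcripts. Leaving out 1 library at a time gave 13 to 27 in both sexes, 1 to 8 in females, 2 to 7 in males, 0 to 5 between WT sexes and 0 to 1 for the interaction. With the replicate number as a block within each sex, there were 3 in both sexes, 1 in females and 1 in males, with none of the members. Same-numbered libraries did not deviate together (r from -0.04 to 0.04), and the labels tie them by number alone. What else they may share is not given, and no block could be fitted between the WT sexes.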
